A study of Mus musculus with 16 samples.

Results

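The genes described here are Stat2, Stat3, Stat4, Stat5b and Stat6, Irf9, and the feedback inhibitors Socs1 and Socs3: 8 of the 32285 genes listed in the matrices. They were chosen by symbol, and each symbol matched a single row. Single nuclei were isolated from hippocampi of male mice and profiled by droplet-based single-nucleus RNA-seq in 16 libraries, 4 in each of 4 groups. WT mice (labelled C57BL/6, aged 2 months and 23 days) were given vehicle or DMXAA, a small-molecule agonist of mouse STING. Mice labelled Ifnar1-/-, aged 3 months and 3 days, lack a chain of the type I interferon receptor and were given the same agents; no cell type-specific driver is named for the deletion. The genotypes therefore differed in age as well, so that genotype, age and any difference of cohort cannot be told apart in a comparison between them.

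After filtering and removal of doublets, 108878 nuclei remained, 5163 to 9237 in a library, with 32863824 to 52107634 UMIs in a library. Clusters were named from fixed marker genes, and 9 named classes were tested: microglia, astrocytes, oligodendrocytes, oligodendrocyte precursors (OPCs), excitatory neurons (ENs), inhibitory neurons (INs), fibroblasts, choroid plexus and Cajal-Retzius cells. In 8 of these classes every marker was more than 2 times higher than in the other nuclei, and in ENs 7 of 8 markers were. The clusters were named from these same markers, so this is no separate check of the names. Libraries shared 12 to 41 cell barcodes in a pair, at most 0.445% of the smaller library. Ifnar1 itself was at 18.0 ± 0.891 CPM (mean ± SD, n = 4; the UMIs of a gene scaled to the total UMIs of the class in that library) in all nuclei of WT vehicle mice and at 10.9 ± 0.620 in Ifnar1-/- vehicle mice, so transcript was lower but still detected. Which part of the gene the deletion removes is not given in the sources used here, so these 3′ counts may lie outside it. With scaling to library totals, the median log2 difference of all tested genes between Ifnar1-/- and WT vehicle mice was -0.388. The part of that general shift in the lower Ifnar1 level was not tested. WT DMXAA replicate 3 stood apart from its group: it had the most nuclei (9237), the most unnamed nuclei (1754) and no choroid plexus nuclei. It also had the lowest Stat2 and the lowest Irf9 of the 4 WT DMXAA libraries in 7 of the 7 classes that all 4 entered and in which the gene was tested, and WT DMXAA replicate 1 had the highest in 7 of 7. Results without replicate 3 are also given below, though not for every count. Leaving it out raises the Stat2 and Irf9 means of its group in these classes, so such values are no separate support for a response.

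STAT proteins are latent transcription factors that Janus kinases phosphorylate at activated cytokine receptors. Stat2 and Irf9 are subunits of ISGF3, the complex that carries the type I interferon signal to interferon-stimulated response elements, and both genes are themselves known interferon-stimulated genes. Stat3 responds chiefly to the IL-6 family of cytokines, Stat4 to IL-12, Stat5b to growth hormone and related ligands, and Stat6 to IL-4 and IL-13. Socs1 and Socs3 encode inhibitors that are induced by STATs and shut down JAK activity at the receptor.

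The promoters of the ISGF3 subunits and of the SOCS genes are shown because Stat2 and Irf9 were the members called with DMXAA, and because the SOCS genes are known targets of interferon and STAT3 signalling. Sequences are from RefSeq (GRCm38.p6, the build of the counts), 250 bases before to 50 bases after a start site, 5′ to 3′ on the strand of the gene. Capitals mark matches, on either strand, to GAAANNGAA, the core of an interferon-stimulated response element, or to TTCNNNGAA, the palindromic STAT site.
Stat2, chr10:128270248-128270547, + strand: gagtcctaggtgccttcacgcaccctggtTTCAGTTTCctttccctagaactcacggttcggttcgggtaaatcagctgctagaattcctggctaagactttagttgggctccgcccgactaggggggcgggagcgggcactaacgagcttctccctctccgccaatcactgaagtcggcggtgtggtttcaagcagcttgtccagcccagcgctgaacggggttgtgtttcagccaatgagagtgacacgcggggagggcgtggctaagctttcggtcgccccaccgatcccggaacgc
Irf9, chr14:55604329-55604628, + strand: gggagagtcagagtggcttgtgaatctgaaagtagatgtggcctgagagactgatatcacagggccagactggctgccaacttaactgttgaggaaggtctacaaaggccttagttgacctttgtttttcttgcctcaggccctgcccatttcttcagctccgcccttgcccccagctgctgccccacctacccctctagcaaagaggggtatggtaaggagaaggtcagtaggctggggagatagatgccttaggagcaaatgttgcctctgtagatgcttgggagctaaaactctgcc
Socs1, chr16:10785487-10785786, - strand: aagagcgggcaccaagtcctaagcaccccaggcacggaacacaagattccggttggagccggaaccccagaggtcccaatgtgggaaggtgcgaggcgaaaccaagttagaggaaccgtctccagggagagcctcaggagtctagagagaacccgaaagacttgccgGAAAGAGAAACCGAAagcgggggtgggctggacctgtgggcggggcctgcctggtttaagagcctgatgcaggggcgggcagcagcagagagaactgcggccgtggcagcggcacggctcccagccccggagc
Socs3, chr11:117969317-117969616, - strand: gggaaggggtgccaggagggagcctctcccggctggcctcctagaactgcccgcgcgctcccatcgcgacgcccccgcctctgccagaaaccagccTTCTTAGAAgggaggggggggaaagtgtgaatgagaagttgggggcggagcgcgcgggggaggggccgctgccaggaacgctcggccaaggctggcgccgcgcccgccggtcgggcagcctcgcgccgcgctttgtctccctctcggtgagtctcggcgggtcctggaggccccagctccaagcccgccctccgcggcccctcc

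All 8 members had a promoter window, 11 windows in all. GAAANNGAA was found in Stat2 (1 match on the minus strand of the gene, 221 to 213 bases before the start site), in Socs1 (2 overlapping matches, 83 to 75 and 77 to 69 bases before it) and in 1 of the Stat4 windows. TTCNNNGAA was found only in Socs3, 154 to 146 bases before the start site. Neither motif was in the Irf9, Stat3, Stat5b or Stat6 windows searched, the other Irf9 window included. Both Irf9 windows and the Socs3 window lie inside the annotated spans of their genes, so the sequence before the annotated 5′ ends of these genes was not searched. Of 32851 promoter windows of this length, 8.56% held GAAANNGAA and 8.30% held TTCNNNGAA. A match is a run of letters, not a measured binding site.

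In the annotation (GRCm38, GENCODE M21), Stat2 spans chr10:128270559-128292849 with 24 exons in its longest coding transcript, and Irf9 spans chr14:55603571-55610030 with 10 exons. Irf9 overlaps the 3′ end of Rnf31 on the same strand by 123 bases, so reads there cannot be assigned to either gene alone. Stat3 and Stat6 each overlap a gene on the opposite strand, by 72 and 40 bases at an end. Stat4 overlaps, by 29929 bases on its own strand and by 432 bases on the opposite strand, 2 annotated genes that are not in the gene list of the counts (Gm28177 and Gm3940), so UMIs from the bases shared on the same strand cannot be assigned to Stat4 alone. Stat5b has a near-identical neighbouring paralog, and its counts rest on reads that match it alone. Stat3 and Stat5b lie close together, at chr11:100885098-100939540 and chr11:100780731-100850724. Stat6 lies at chr10:127642986-127660957 and Stat4 at chr1:51987148-52107189. Socs1 (chr16:10782240-10785536) and Socs3 (chr11:117966079-117970047) are short genes of 2 exons each. Counts were not divided by gene length, so levels below are compared between classes or groups for the same gene, and not between genes.

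The members differed widely in how well they were measured. Stat5b gave 26148 UMIs over the 16 libraries, Stat3 24352, Stat2 21655 and Irf9 8769. Stat6 gave 2161, Stat4 745, Socs1 402 and Socs3 378. Of the 72 pairs of a member and a named class, 40 passed the filter on low counts and were tested, and 32 were not. The filter asks for enough counts in as many libraries as the smallest group holds. A pair could therefore pass through the group in which it was high. Stat2, Stat3, Stat5b and Irf9 were each tested in 8 classes, Stat6 in 4, Stat4 in 2 (ENs and INs), and Socs1 and Socs3 in ENs alone. No member was tested in Cajal-Retzius cells.

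In WT vehicle mice, Stat2 was highest in fibroblasts, at 73.2 ± 17.0 CPM (SD, n = 4), with its lowest fibroblast library above every library of the next class. Oligodendrocytes (37.4 ± 5.84), astrocytes (37.2 ± 5.26), microglia (33.3 ± 4.70), ENs (32.6 ± 1.84) and INs (26.1 ± 6.53) followed, and each overlapped the next. Irf9 was highest in microglia (38.3 ± 8.92), choroid plexus (37.6 ± 12.5, n = 2) and fibroblasts (34.5 ± 8.24), which overlapped each other and stood apart from astrocytes (15.4 ± 1.99). ENs had 9.98 ± 1.90 CPM of Irf9 and oligodendrocytes 7.19 ± 1.28. These levels are a description, with no test between classes.

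Stat3 was highest in microglia (149 ± 19.8 CPM, n = 4), followed by fibroblasts (116 ± 26.7), astrocytes (92.3 ± 11.8) and OPCs (73.1 ± 16.6), and lowest in ENs (23.4 ± 3.98). Neighbouring classes overlapped throughout that order. Stat5b followed a similar order, with 177 ± 17.5 in microglia, 151 ± 10.7 in fibroblasts, 143 ± 6.43 in choroid plexus (n = 2) and 125 ± 8.22 in OPCs. ENs had 20.3 ± 5.82 CPM of Stat5b, apart from all other classes except Cajal-Retzius cells. Stat6 was high in 3 classes, with 60.8 ± 13.4 in microglia, 38.3 ± 5.06 in fibroblasts and 29.1 ± 12.5 in choroid plexus (n = 2), and 3.31 or less in every other class.

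**Figure D1:**
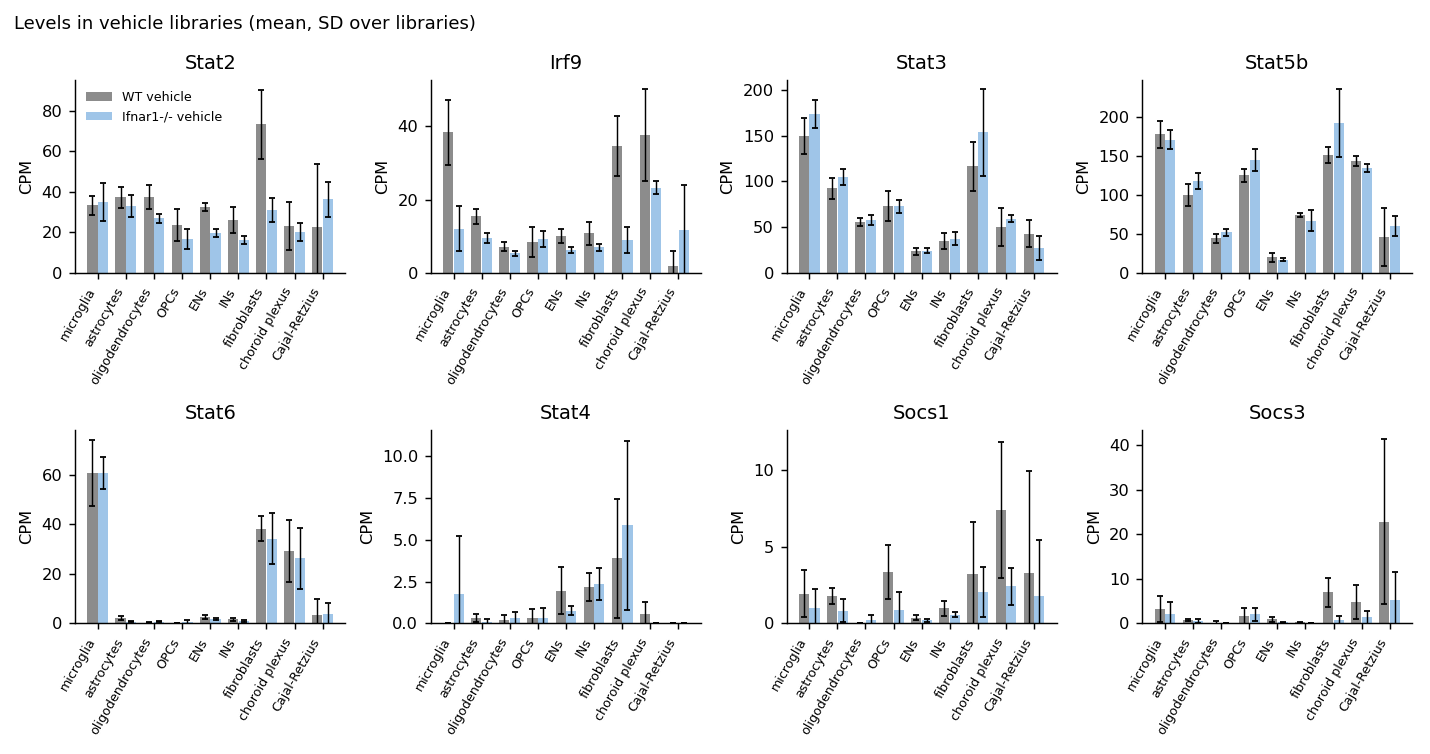
Level of each member (CPM, bars, mean over libraries with SD) by cell class in WT vehicle and Ifnar1-/- vehicle libraries, with a separate linear scale for each gene. Stat6 reached 60.8 CPM in WT microglia and was near 0 in neurons and oligodendrocyte-lineage cells, while Irf9 in microglia averaged 38.3 CPM in WT and 12.01 CPM in Ifnar1-/- vehicle mice.

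To ask which members responded to STING activation, DMXAA was compared with vehicle in WT mice by edgeR's quasi-likelihood test with Benjamini-Hochberg adjustment over all genes of a class, and a gene counted as called when its adjusted p lay below 0.05 with a log2 fold change beyond 0.1 in size. Of the 40 pairs tested, 6 were called, all of them higher: Stat2 in microglia and astrocytes, and Irf9 in OPCs, astrocytes, ENs and microglia. Without WT DMXAA replicate 3, 10 were called. The share of all genes called in that fit is not given here, so the higher count cannot be read as particular to the members. With all libraries, the share of all tested genes called in the same comparison was 1.86% in microglia, 0.24% in astrocytes, 0.208% in OPCs, 0.126% in ENs, 0.0819% in choroid plexus, 0.0124% in fibroblasts and 0% in oligodendrocytes, INs and Cajal-Retzius cells. Stat3, Stat4, Stat5b, Stat6, Socs1 and Socs3 were not called in any class.

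Stat2 rose most in microglia. Its level was 28.0, 31.7, 39.3 and 33.9 CPM in the 4 vehicle libraries (18 to 24 UMIs each) and 379, 185, 96.3 and 136 CPM in the 4 DMXAA libraries (83 to 274 UMIs). Every DMXAA library lay above every vehicle library. The fitted log2 fold change was 2.61 ± 0.34 (SE; adjusted p = 0.000336, edgeR), a 6.11-fold rise.

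In astrocytes Stat2 was at 32.7, 44.7, 36.7 and 34.8 CPM with vehicle and at 255, 111, 76.4 and 93.8 CPM with DMXAA. The groups did not overlap, and the log2 fold change was 1.93 ± 0.29 (adjusted p = 0.0039, edgeR). The call was lost when the 8 WT libraries were fitted alone (adjusted p = 0.207), and held under the other 21 settings. The summed level of the 7 microglial markers in astrocytes was 77.3 to 120 CPM with vehicle and 63.5 to 115 CPM with DMXAA, and its part in the result was not tested.

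Stat2 was not called by edgeR in the other classes with all libraries. DESeq2 called it in ENs (adjusted p = 0.00773), and edgeR without the filter on low counts called it in OPCs and in choroid plexus (adjusted p = 6.49e-07 in choroid plexus). In choroid plexus this was the only 1 of 17 other settings that called Stat2. In OPCs it was at 18.8, 34.5, 24.6 and 17.1 CPM with vehicle and 71.3, 52.3, 21.8 and 45.6 CPM with DMXAA, a log2 fold change of 1.06 ± 0.28 (adjusted p = 0.264, edgeR) that became significant without WT DMXAA replicate 3 (adjusted p = 0.0017). In ENs the corresponding value was 0.86 ± 0.19 (adjusted p = 0.178, and 0.0265 without replicate 3), and in oligodendrocytes 0.76 ± 0.28 (adjusted p = 0.696, and 0.036 without it). The EN pair was also called without WT DMXAA replicate 1, which had the highest Stat2. Choroid plexus, with 2 vehicle and 3 DMXAA libraries, gave 1.99 ± 0.55 (adjusted p = 0.172). INs gave only 0.14 ± 0.18, and fibroblasts, in which the vehicle level was highest, 0.54 ± 0.28.

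Irf9, the DNA-binding subunit that directs ISGF3 to its response element, was called in 4 classes. In OPCs it was at 12.9, 7.78, 3.08 and 9.63 CPM with vehicle (3 to 11 UMIs) and at 98.9, 58.2, 25.1 and 51.3 CPM with DMXAA (23 to 79 UMIs). No DMXAA library overlapped a vehicle library, and the log2 fold change of 2.86 ± 0.36 (adjusted p = 0.000159, edgeR) was the largest among the 40 pairs. These pairs were filtered with the DMXAA counts included, and the low vehicle counts make the size of this change uncertain. The 7 microglial markers summed to 66.7 to 90.6 CPM in vehicle OPCs and to 36.0 to 124 CPM in DMXAA OPCs; their part in the result was not tested.

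In astrocytes Irf9 was at 13.3, 17.1, 17.2 and 14.2 CPM with vehicle and at 108, 56.2, 32.0 and 65.7 CPM with DMXAA (log2 fold change 2.16 ± 0.26, adjusted p = 0.000707, edgeR). ENs, the class with the most nuclei, had 7.58, 9.53, 12.05 and 10.8 CPM with vehicle and 44.2, 28.2, 14.7 and 26.0 CPM with DMXAA (1.55 ± 0.20, adjusted p = 0.00156). In both classes the DMXAA libraries lay above all vehicle libraries. Fitted on the 8 WT libraries alone, neither call held (adjusted p = 0.085 in astrocytes and 0.144 in ENs). The microglial markers spanned 69.7 to 90.8 CPM in vehicle ENs and 30.3 to 121 CPM in DMXAA ENs, which again was not tested as a part of the result.

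Microglia, with the highest Irf9 at rest, showed the smallest called change. Irf9 was at 45.2, 31.7, 29.5 and 46.7 CPM with vehicle and at 115, 100.4, 37.1 and 112 CPM with DMXAA. Replicate 3 of the DMXAA group fell among the vehicle libraries, and the log2 fold change was 1.28 ± 0.30 (adjusted p = 0.0341, edgeR). Without it the change was 1.48 (adjusted p = 2.69e-05), but the call was lost under 10 of 22 other settings.

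In oligodendrocytes all 4 DMXAA libraries lay above the vehicle libraries (17.1 to 59.1 against 5.89 to 8.84 CPM of Irf9), and the log2 fold change was 2.18 ± 0.35. Its adjusted p of 0.0536 missed the threshold, and was 0.00136 without WT DMXAA replicate 3. The pair was also called at resolution 1.0, without the filter on low counts, and without WT DMXAA replicate 1 or 4. Choroid plexus also had non-overlapping groups (28.8 and 46.4 CPM with vehicle against 55.8 to 95.2 CPM with DMXAA; 1.02 ± 0.27, adjusted p = 0.138). In INs (0.38 ± 0.20) and fibroblasts (0.44 ± 0.37) the groups overlapped. Whether the response of a gene differed between classes was not tested.

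**Figure D2:**
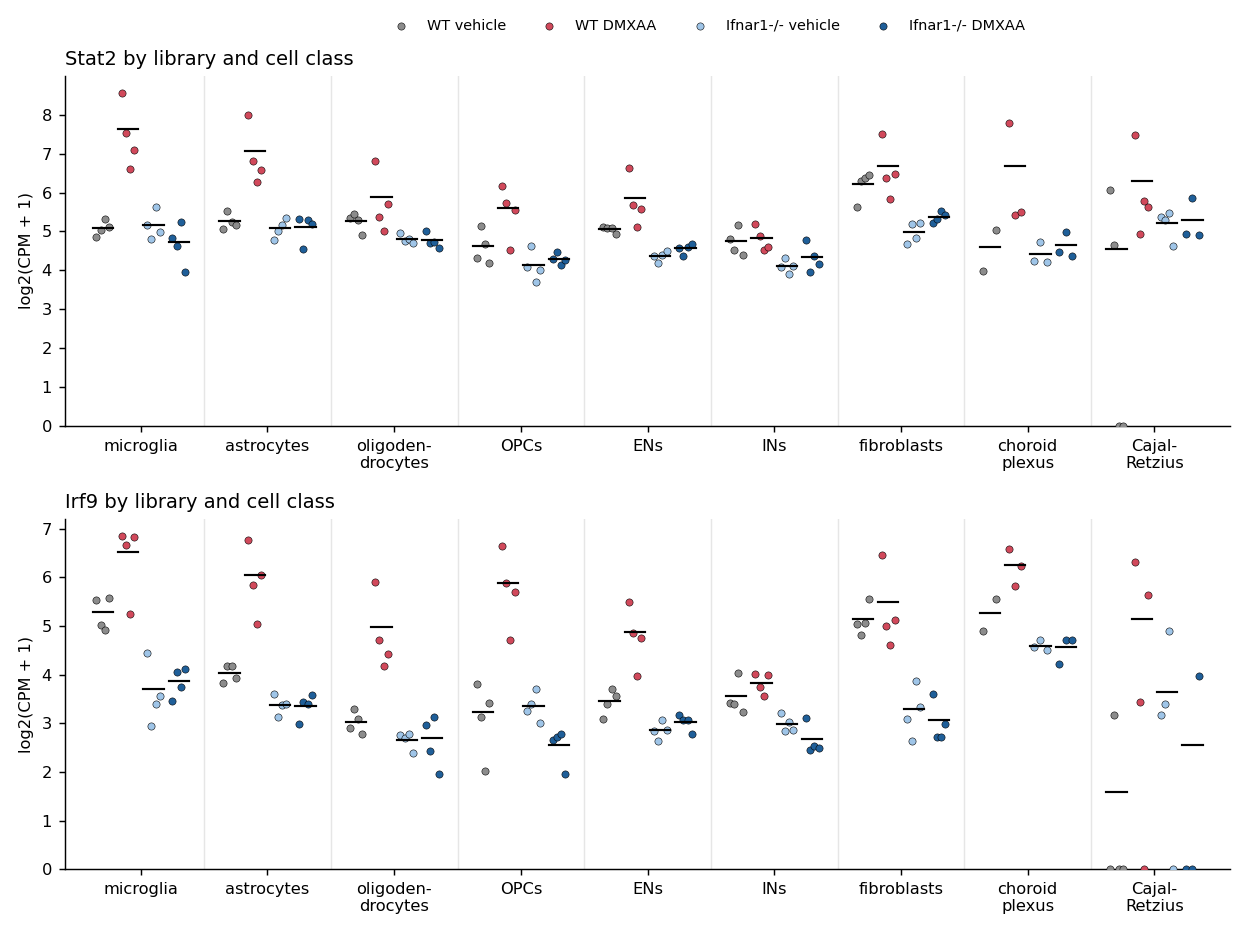
Stat2 (top) and Irf9 (bottom) in each library (points, log2(CPM + 1)) and as the group mean (short lines, computed on CPM and then put on the log scale) for 9 cell classes and 4 groups. WT DMXAA libraries stood above WT vehicle libraries for Stat2 in microglia (96.3 to 379 against 28.0 to 39.3 CPM) and for Irf9 in OPCs (25.1 to 98.9 against 3.08 to 12.9 CPM), and Irf9 in Ifnar1-/- OPCs was 2.87 to 5.86 CPM with DMXAA and 7.02 to 12.05 CPM with vehicle.

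Summed over all nuclei of a library, 2 of the 8 members were called in WT mice, against 0.415% of all genes. Irf9 rose from 9.06 to 12.7 CPM with vehicle to 16.1 to 49.1 CPM with DMXAA (log2 fold change 1.54 ± 0.19, adjusted p = 0.000656, edgeR, and 0.0533 with the 8 WT libraries alone). Stat2 rose from 29.9 to 35.0 CPM to 35.8 to 109 CPM (0.94 ± 0.19, adjusted p = 0.0465), a call that was lost under 15 of 23 other settings. In such sums, fewer nuclei of a class and less RNA in each cannot be told apart.

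ENs were divided into 6 regions by markers to see whether the neuronal response was shared. Irf9 was called in 3 of them: dentate granule neurons (2.05 ± 0.27, adjusted p = 0.00137, edgeR), CA1 (1.36 ± 0.20, adjusted p = 0.00538) and the remaining ENs grouped as other (1.42 ± 0.22, adjusted p = 0.0264). The background shares of genes called were 0.137%, 0.0464% and 0.0604% in these regions, 0.0178% in the upper cortical layer, 0.0079% in the deep cortical layer or subiculum, and 0% in CA3. Dentate granule neurons held 7.06, 9.43, 12.6 and 10.6 CPM of Irf9 with vehicle and 69.0, 38.9, 17.6 and 34.0 CPM with DMXAA, without overlap.

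The upper cortical layer also had non-overlapping Irf9 groups (7.46 to 12.2 against 17.0 to 26.6 CPM; 1.11 ± 0.22, adjusted p = 0.407). CA3 gave 0.64 ± 0.34 and the deep cortical layer or subiculum 0.99 ± 0.31, both with overlap. Stat2 was not called in any of the 6 regions with all libraries. Its log2 fold changes ran from 0.24 ± 0.23 in CA3 to 1.01 ± 0.24 in dentate granule neurons, and 3 regions were called without WT DMXAA replicate 3 (CA1, dentate granule and upper cortical layer). No share of all genes is given here for the regions without that library.

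**Figure D3:**
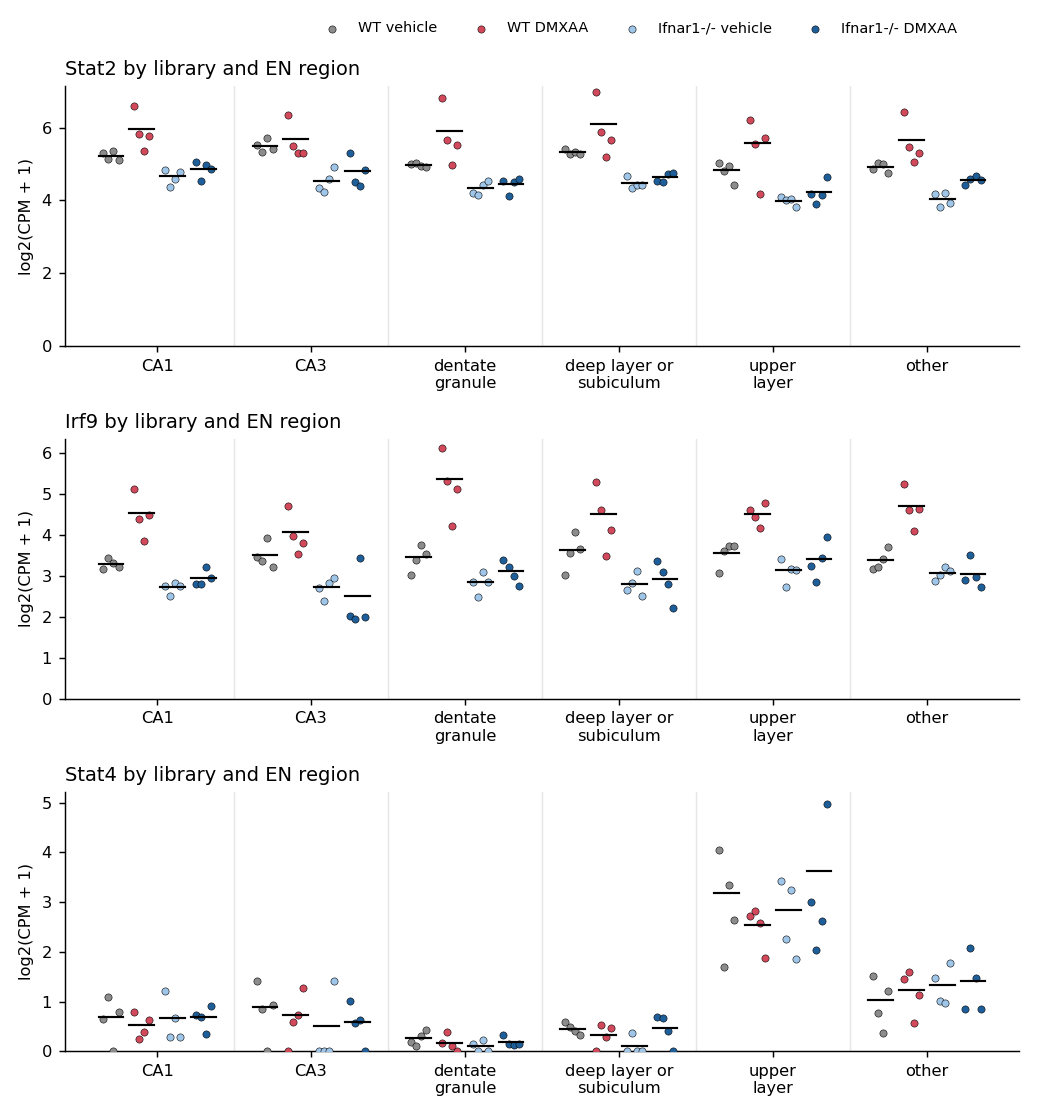
Stat2, Irf9 and Stat4 in each library (points, log2(CPM + 1)) and as the group mean (short lines, computed on CPM) in 6 EN regions and 4 groups. Irf9 in dentate granule neurons was 17.6 to 69.0 CPM in WT DMXAA libraries against 7.06 to 12.6 CPM with vehicle, and Stat4 in WT vehicle libraries was 2.24 to 15.5 CPM in the upper cortical layer and at most 1.86 CPM in the other regions.

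The STATs of other cytokine pathways were not called. Stat3 in microglia was at 142, 125, 160 and 170 CPM with vehicle and at 176, 153, 154 and 164 CPM with DMXAA in WT mice, with overlapping groups (log2 fold change 0.17 ± 0.12, adjusted p = 0.743, edgeR). Its largest value was in astrocytes (0.36 ± 0.14, adjusted p = 0.686), where vehicle libraries held 75.9 to 103 CPM and DMXAA libraries 91.9 to 131 CPM. Over the 8 classes tested, Stat3 changes ran from -0.06 to 0.36.

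Stat5b in microglia was the single case outside Stat2 and Irf9 in which the WT groups did not overlap. It was at 195, 165, 190 and 160 CPM with vehicle and at 144, 159, 92.8 and 157 CPM with DMXAA, but the log2 fold change of -0.31 ± 0.14 was not significant (adjusted p = 0.478, edgeR). In OPCs Stat5b gave 0.35 ± 0.11 (adjusted p = 0.587). Stat6, tested in 4 classes, gave values from -0.20 ± 0.30 in fibroblasts to 0.08 ± 0.30 in ENs, and -0.14 ± 0.18 in microglia, where its level was highest.

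Stat4 was sparse in all classes. Its mean in WT vehicle libraries was 3.89 ± 3.56 CPM in fibroblasts (0 to 3 UMIs in a library), 2.16 ± 0.832 in INs and 1.95 ± 1.41 in ENs (SD, n = 4), which overlapped. Among EN regions, the upper cortical layer gave 83, 1, 52 and 17 UMIs in the 4 WT vehicle libraries (15.5, 2.24, 9.21 and 5.20 CPM), whereas dentate granule neurons gave 1 to 3 UMIs in these libraries. Its log2 fold change with DMXAA in WT ENs was -1.23 ± 0.46 (adjusted p near 1, edgeR), and within the upper cortical layer -0.83 ± 0.55 (adjusted p near 1). The number of upper-layer nuclei ranged from 69 to 727 over the 16 libraries, and its part in the EN value was not tested. A single nucleus of Ifnar1-/- DMXAA replicate 2, in the cluster named border macrophage, held 26 of the 745 Stat4 UMIs and 1 UMI of the T cell markers. The 15 nuclei of that cluster with a Stat4 UMI held 27 macrophage marker UMIs among 36974 UMIs. The 288 nuclei without Stat4 held 4260 among 628826. Macrophage markers were thus sparser in the Stat4 nuclei but present, and the type of these nuclei was not tested.

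The SOCS genes, the feedback arm of the pathway, were too sparse to test in most classes. Over all nuclei, Socs1 was at 0.801, 0.583, 0.838 and 0.643 CPM in WT vehicle libraries and at 1.14, 0.826, 0.633 and 1.17 CPM with DMXAA (23 to 42 UMIs each), with overlapping groups (log2 fold change 0.44 ± 0.22, adjusted p = 0.998, edgeR). Socs3 was at 0.926, 0.456, 1.49 and 0.989 CPM with vehicle and 1.36, 0.826, 0.288 and 0.900 CPM with DMXAA (-0.19 ± 0.35, adjusted p = 0.998). In ENs the values were 0.48 ± 0.34 for Socs1 and -0.44 ± 0.55 for Socs3. Neither was called. By class, the highest Socs3 mean was in Cajal-Retzius cells (22.8 ± 18.5 CPM, n = 4, from 1 to 3 UMIs in a WT vehicle library). These counts are too few to rank the classes or to tell from background. Within ENs, Socs3 in the deep cortical layer or subiculum gave 15, 1, 18 and 14 UMIs in the WT vehicle libraries, and CA1 and CA3 gave 0.

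Whether these responses needed the interferon receptor was asked with the same contrast in Ifnar1-/- mice, and with a test of the difference between the 2 genotypes. In Ifnar1-/- mice 0 of the 40 pairs were called by edgeR, 0 reached 0.05 without adjustment, and neither DESeq2 nor limma called any (0 each). Among all genes edgeR also called 0% in every class, with 441 below 0.05 without adjustment in microglia and 1358 over all nuclei. For all genes limma called 0 as well, whereas DESeq2 called 45 over all nuclei (9 higher, 36 lower), 12 in fibroblasts and 0 in the other classes. When WT DMXAA replicate 3 was left out of the joint fit, edgeR called 98 genes in Ifnar1-/- astrocytes, 37 in INs, 18 in OPCs, 13 in microglia, 6 in oligodendrocytes and 1 in Cajal-Retzius cells, and still 0 of the member pairs.

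Stat2 in Ifnar1-/- microglia was at 34.7, 26.7, 48.1 and 30.5 CPM with vehicle and at 27.7, 23.6, 37.1 and 14.6 CPM with DMXAA. The groups overlapped, and the log2 fold change was -0.50 ± 0.40 (adjusted p = 0.917, edgeR). The WT effect exceeded the Ifnar1-/- effect by 3.11 ± 0.53 on the log2 scale (adjusted p = 0.0188), where 0.134% of all genes were called. This call was lost under 7 of 21 other settings, namely without WT vehicle replicate 1, 2 or 4, Ifnar1-/- vehicle replicate 1 or 3, or Ifnar1-/- DMXAA replicate 1 or 4.

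Irf9 in Ifnar1-/- OPCs was at 8.53, 9.50, 12.05 and 7.02 CPM with vehicle and 5.34, 5.59, 5.86 and 2.87 CPM with DMXAA. Each DMXAA library lay below each vehicle library, but with 3 to 11 UMIs in a library the change of -0.93 ± 0.51 was not significant (adjusted p = 0.877, edgeR). The difference between the genotypes was 3.79 ± 0.63 (adjusted p = 0.0156, against 0.052% of all genes called), and the call was lost under 4 of 21 other settings (without Ifnar1-/- vehicle replicate 1, 3 or 4, or Ifnar1-/- DMXAA replicate 3). Over all nuclei, Irf9 gave a difference of 1.55 ± 0.26 (adjusted p = 0.0415, against 0.0651%).

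These were the 2 member calls among the 40 pairs and the 1 call over all nuclei for the difference between genotypes. In ENs 0.0285% of all genes passed this test, and 0% in the remaining classes. Irf9 in astrocytes gave 2.19 ± 0.39 (adjusted p = 0.0739), in ENs 1.44 ± 0.29 (adjusted p = 0.225) and in microglia 1.11 ± 0.55 (adjusted p = 0.582), and Stat2 in astrocytes 1.90 ± 0.40 (adjusted p = 0.223). Without WT DMXAA replicate 3, 5 pairs were called, with Irf9 in astrocytes (adjusted p = 0.00081), Irf9 in ENs (adjusted p = 0.0213) and Stat2 in astrocytes added. Leaving out WT DMXAA replicate 1 gave 4 calls, and leaving out Ifnar1-/- vehicle replicate 1 or replicate 3 gave 0. The shares of all genes above are from the fit with all libraries. None is given here for the fits with a library left out, so added calls cannot be read as particular to the members. The call over all nuclei was lost under 16 of 22 other settings. Among EN regions 0 of 27 pairs were called for this difference with all libraries, and 1 without WT DMXAA replicate 3. That pair was Irf9 in dentate granule neurons (1.82, adjusted p = 0.310, edgeR, and 0.0117 without replicate 3).

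**Figure D4:**
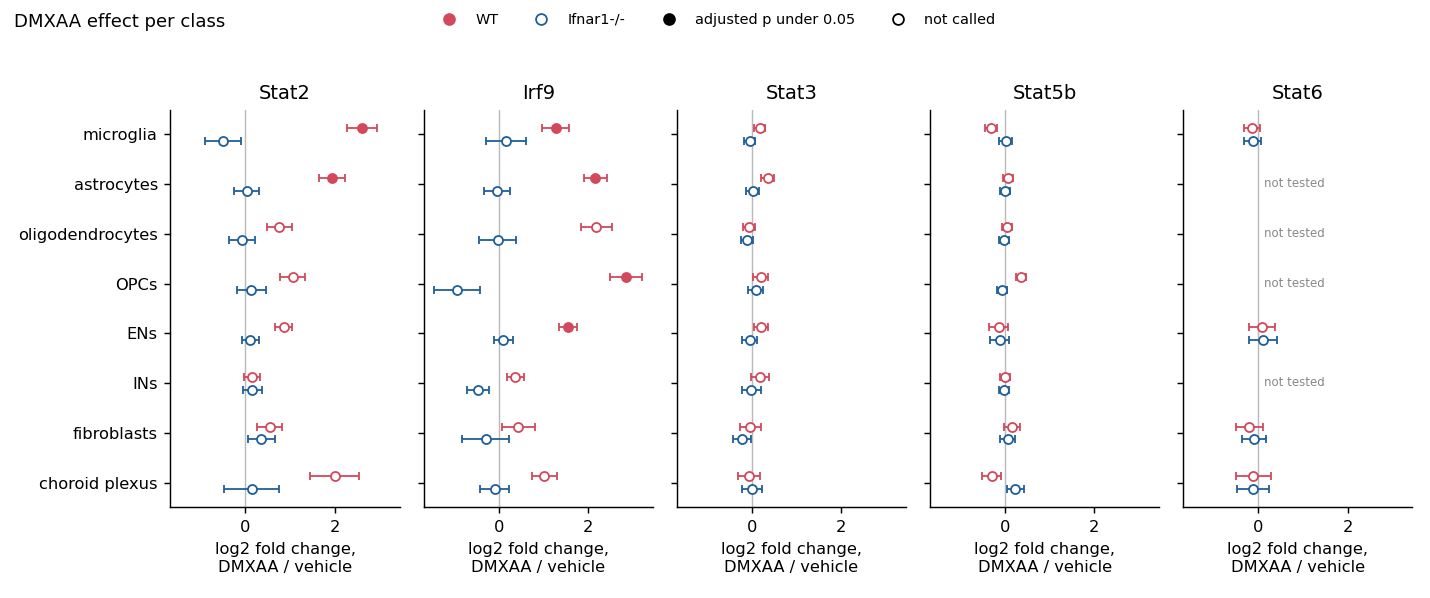
Log2 fold change of DMXAA over vehicle (points, with SE as bars) for 5 members in 8 cell classes, in WT and Ifnar1-/- mice; filled points were called at an adjusted p under 0.05. The 6 filled points are Stat2 and Irf9 in WT mice, with 2.86 for Irf9 in OPCs the largest, and no Ifnar1-/- point is filled.

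At rest, vehicle-treated Ifnar1-/- mice were compared with vehicle-treated WT mice, which share the WT vehicle libraries with the comparison above. A large part of the transcriptome differed between these groups: 48.6% of genes over all nuclei, 49.5% in ENs, 39.1% in INs, 29.7% in oligodendrocytes, 29.6% in astrocytes, 25.7% in OPCs, 23.9% in choroid plexus, 14.2% in microglia, 12.9% in fibroblasts and 3.86% in Cajal-Retzius cells. Of the 40 member pairs, 7 were called, 4 higher and 3 lower, a share inside the range of these backgrounds. That range is too wide to set the members apart from other genes. With library totals in place of TMM scaling factors, 0 were called higher and 9 lower, and the median of all genes moved by -0.33 on the log2 scale over all nuclei and by -0.46 in ENs. The 3 lower pairs were called under both scalings. Without WT DMXAA replicate 3, 12 pairs were called, while the share of all genes called rose as well, to 59.7% over all nuclei, 34.6% in OPCs and 31.1% in microglia.

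Irf9 in microglia was at 45.2, 31.7, 29.5 and 46.7 CPM in WT vehicle libraries and at 20.8, 6.69, 9.62 and 10.9 CPM in Ifnar1-/- vehicle libraries (18 to 33 and 3 to 9 UMIs). All Ifnar1-/- libraries lay below all WT libraries, and the log2 difference was -1.55 ± 0.38 (adjusted p = 0.0156, edgeR, and 0.0557 without Ifnar1-/- vehicle replicate 2). In fibroblasts Irf9 was at 32.2, 27.1, 32.6 and 46.3 CPM in WT and at 7.55, 5.25, 13.7 and 9.05 CPM in Ifnar1-/- libraries (-1.89 ± 0.42, adjusted p = 0.00911), also without overlap. Summed markers of other classes in microglia were higher in Ifnar1-/- than in WT vehicle libraries without overlap for 4 of 8 lists: astrocytes (564 to 697 against 412 to 544 CPM), INs (171 to 450 against 57.1 to 120), OPCs (41.3 to 107 against 23.4 to 31.1) and Cajal-Retzius cells (131 to 200.2 against 99 to 109). In fibroblasts the groups overlapped for all 8 lists. The part of these markers in the Irf9 difference was not tested.

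Stat2 in fibroblasts was at 48.2, 77.1, 81.4 and 86.0 CPM in WT and at 24.5, 35.4, 27.4 and 36.2 CPM in Ifnar1-/- vehicle libraries, again without overlap (-1.18 ± 0.30, adjusted p = 0.016, edgeR). In microglia, by contrast, Stat2 was at 28.0 to 39.3 CPM in WT and 26.7 to 48.1 CPM in Ifnar1-/- libraries (0.20 ± 0.38, adjusted p = 0.738).

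Socs3 over all nuclei was at 0.926, 0.456, 1.49 and 0.989 CPM in WT vehicle and 0.335, 0.260, 0.386 and 0.255 CPM in Ifnar1-/- vehicle libraries (18 to 55 against 9 to 17 UMIs). The groups did not overlap, and the log2 difference was -1.29 ± 0.38 (adjusted p = 0.0122, edgeR; -1.63 with library totals). In ENs, the only named class in which Socs3 was tested, the log2 difference was -1.47 and was not called (adjusted p = 0.0638, edgeR). It was called there under 3 of 21 other settings, library totals among them. The part of tissue makeup in the value over all nuclei was not tested.

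The 4 higher calls depended on the scaling, and each was also lost under other settings. Stat3 in ENs had nearly the same CPM in both groups (23.4 ± 3.98 in WT and 24.3 ± 2.86 in Ifnar1-/-, n = 4), and its log2 difference was 0.52 ± 0.16 with TMM (adjusted p = 0.015, edgeR) but 0.05 with library totals. The EN call was also lost at resolution 1.0 and without WT vehicle replicate 1. Stat5b in astrocytes, oligodendrocytes and OPCs gave 0.37, 0.39 and 0.38 with TMM (adjusted p 0.0173 to 0.0221, edgeR), and 0.23, 0.22 and 0.20 without it, not called. With 1 library left out, the astrocyte call was lost in 4 of 16 fits. The oligodendrocyte and OPC calls were lost in 2 of 16 each, and without the count filter. Among EN regions 3 of 27 pairs were called at rest, all higher, and 5 without WT DMXAA replicate 3. In ENs as a whole 49.5% of all genes were called, and library totals were not run for regions. Over all nuclei Stat3 and Stat5b were called with TMM (0.55 and 0.48) and not with library totals (0.21 and 0.14). Conversely, Stat2, Irf9, Stat4 and Socs1 over all nuclei were not called with TMM and all libraries, and were called lower with library totals (-0.61, -0.65, -0.96 and -0.72). Stat2 and Irf9 were also called with the 8 vehicle libraries alone, Stat2 without WT DMXAA replicate 1 and Stat4 without WT vehicle replicate 2. Summed microglial markers in ENs were lower in Ifnar1-/- than in WT vehicle libraries (24.9 to 34.9 against 69.7 to 90.8 CPM). Astrocyte markers in ENs were higher (830 to 956 against 681 to 798 CPM). Microglial markers were also lower without overlap in astrocytes, oligodendrocytes and OPCs, and the part of such markers was not tested.

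The genes around the members in the pathway were followed as lists. Of 40 genes known as ISGF3 targets, 38 were in the gene list of the files. A target could pass the filter on low counts through the WT DMXAA libraries in which it was high. The shares called and the medians below hold for the tested targets only, and not for all 38. The list was also chosen with earlier results of these data known, so its shares and medians are no separate support for a response. In WT mice 23 of the 26 tested in microglia were called higher with DMXAA, 15 of 21 in astrocytes, 11 of 14 in OPCs, 12 of 27 in ENs and 2 of 14 in choroid plexus, and 27 of 35 over all nuclei, and 0 were called lower. The median log2 fold change of the tested targets was 2.50 in microglia, 1.89 in astrocytes, 2.01 in OPCs and 2.10 in ENs, against 0.05, 0.02, 0.02 and 0.01 for all genes tested.

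In oligodendrocytes 0 of 11 targets passed edgeR (8 at an unadjusted p under 0.05, and 0 by DESeq2 or limma), in fibroblasts 0 of 19 (12 unadjusted, 0 by the other tools) and in INs 0 of 9 (1 unadjusted, 0 by the other tools). Without WT DMXAA replicate 3, 7 targets passed in oligodendrocytes and 2 in fibroblasts.

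Among the targets, Ddx60, an RNA helicase family member, rose by 5.06 ± 0.31 on the log2 scale in OPCs (adjusted p = 1.79e-09, edgeR), from 4.28 to 7.19 CPM to 128 to 324 CPM. Slfn5, a Schlafen family gene, rose by 6.01 ± 0.57 in microglia (1.41 to 3.17 CPM against 58.0 to 271 CPM; adjusted p = 1.53e-05), and Ifit1, which binds foreign RNA, by 4.86 ± 0.60 in astrocytes (adjusted p = 0.000707). Oas2 was at 0 in all 4 vehicle libraries of microglia and at 54.5 to 216 CPM with DMXAA. For the difference between genotypes, Rnf213, Trim30a and Ddx60 were called in microglia (2.77, 2.41 and 2.18 on the log2 scale), Ddx60, Rtp4 and Rnf213 in OPCs, and Ddx60 in ENs. Targets called for this difference rose from 3 to 11 in microglia and from 0 to 7 in astrocytes without WT DMXAA replicate 3.

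Of 15 other brakes on the pathway, such as further SOCS, PIAS and phosphatase genes, only Usp18 was called in WT mice by edgeR with all libraries. Without WT DMXAA replicate 3, Socs2 and Socs7 were called lower in oligodendrocytes, and Usp18 was called higher in OPCs and dentate granule neurons as well. Usp18, which displaces JAK1 from the receptor chain IFNAR2 and so damps further signalling, rose by 4.0 ± 0.58 on the log2 scale in microglia (2.83 to 15.9 CPM against 53.4 to 257 CPM; adjusted p = 0.00192, edgeR) and by 4.04 ± 0.67 in astrocytes (adjusted p = 0.0169). In ENs it was at 0 to 0.0750 CPM with vehicle and 0.768 to 7.77 CPM with DMXAA. Usp18 is also among the ISGF3 targets.

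The upstream and parallel lists had no call in WT mice by edgeR with all libraries. Of 26 cytokine receptor chains, 0 of 106 gene and class pairs passed (9 at an unadjusted p under 0.05), of the 4 Janus kinases 0 of 26 (1 unadjusted), of 20 STAT3 targets 0 of 59 (5 unadjusted) and of 15 STAT5 and STAT6 targets 0 of 36 (4 unadjusted). DESeq2 and limma called 0 in each of these lists as well by class, and DESeq2 called the STAT5 and STAT6 target Chil3 over all nuclei. Without WT DMXAA replicate 3, Il6st (lower) and Mcl1 (higher) were called in microglia, Socs2 (lower) in oligodendrocytes and Cntfr (higher) in CA1 and CA3. These genes were singled out after their values were seen. In Ifnar1-/- mice no list had a call, the ISGF3 targets included (0 of 141 pairs; 4 unadjusted, 0 by DESeq2 or limma).

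At rest, 16 of 59 pairs of STAT3 targets were called lower and 1 higher in Ifnar1-/- vehicle mice (26 and 0 with library totals), with Junb, an AP-1 subunit and immediate early gene, and Cebpd among them. Leaving out WT DMXAA replicate 3 gave 7 lower and 1 higher in astrocytes, 6 lower and 2 higher in ENs, and 4 lower in microglia. The share of all genes called in microglia rose as well. The log2 difference of Junb was -2.16 ± 0.41 in astrocytes (mean 2.07 CPM in Ifnar1-/- and 10.2 CPM in WT; adjusted p = 0.00244, edgeR) and -1.73 ± 0.43 in ENs (8.35 and 38.6 CPM; adjusted p = 0.00473). Over all genes, 12.9 to 49.5% were called in either direction in the classes in which these targets were tested, for example 1718 higher and 2233 lower in astrocytes, where 0 targets were higher and 5 of 12 lower. The median log2 difference of the tested targets ran from -0.82 in INs to -0.18 in OPCs with TMM, and that of all genes from -0.08 to 0.02 over the same classes. These comparisons use the same vehicle libraries as Socs3 above.

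Over 36 class and group cells, each the mean over libraries of log2(CPM + 1), the genes that most resembled Stat2 were Lgals3bp (Pearson r = 0.841), Irf7 (0.821), Usp18, Ifitm3 and Oasl2. Those most like Irf9 were Bst2 (0.847), Ogfr, Lgals3bp, Nlrc5 and Alkbh6. Stat3 resembled Lrmda (0.940), Asap3, Stk17b, As3mt and Agmo, and Stat4 resembled Clmp (0.905), Kank4, Cemip, Necab1 and Gm14582. All of these points share their libraries and depth, and 16571 genes with at least 500 UMIs were compared.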

How the data were processed

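Hippocampal nuclei of 16 male mice (1 mouse per library, Chromium 3′ v3.1) were sequenced. The authors deposited raw UMI counts per gene and barcode against mm10. The submitters' notes name Cell Ranger 3.1.0 and Seurat 3.0, and the file headers name Cell Ranger 6.1.2. From the 155084 deposited barcodes, nuclei with 200 to 4000 genes and at most 5% mitochondrial UMIs were kept, and 6.30 to 9.96% of the nuclei of a library within these limits were removed as doublets. Nuclei were clustered (2000 variable genes, 30 components, 20 neighbours, Leiden resolution 0.5; leidenalg 0.10.2), and 26 of 34 clusters were named from markers, which left 13902 nuclei unnamed. Counts were summed per library and class (at least 20 nuclei) and tested with edgeR 4.0.16 (quasi-likelihood, TMM, filterByExpr, all 4 groups in 1 fit, Benjamini-Hochberg adjustment over all genes), in R 4.3.3. DESeq2 1.42.0, limma 3.58.1, library totals without TMM, no count filter, resolution 1.0, all barcodes, 8 libraries alone and each library left out were the alternatives. SE was taken as the log2 fold change over the square root of F. Counts were scaled to CPM by the total UMIs of a class in a library. The test was checked on simulated microglial counts, with changes only in genes of many UMIs and the same spread for all genes. That check does not cover sparse genes or genes that vary widely between libraries. Members and lists were chosen with earlier results of these data known. From each list, the called genes whose 4 DMXAA and 4 vehicle libraries did not overlap could be named, up to the 5 of largest log2 fold change per class, and likeness was taken for 4 members as the 5 genes of highest Pearson r among those with at least 500 UMIs. Border macrophages, endothelial and ependymal cells were too few to be tested. Intervals and errors cover counting and library spread only.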

Additional observations from a re-analysis of the deposited data

Results flagged for a closer look

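In 172 groups of 4 libraries, 9 (5.23%) had a library far from the other 3 by Dixon's criterion, and chance flags about 1 in 20. Irf9 in fibroblasts of WT DMXAA replicate 1 was at 87.5 CPM (nearest 33.7). Stat2 in ENs of WT vehicle replicate 4 was at 29.9 CPM (nearest 33.3), and Stat3 over all nuclei of WT DMXAA replicate 1 at 35.7 CPM (nearest 39.9). In Ifnar1-/- DMXAA replicate 2, Stat3 in ENs was at 22.3 CPM (nearest 25.7), Stat5b in microglia at 136 CPM (nearest 188) and Socs1 over all nuclei at 0.343 CPM (nearest 0.574). In Ifnar1-/- DMXAA replicate 1, Stat5b in INs was at 79.8 CPM (nearest 67.3) and Irf9 in INs at 7.66 CPM (nearest 4.81). Socs1 in ENs of WT vehicle replicate 2 was at 0.150 CPM (nearest 0.413).

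With all libraries, the response to DMXAA differed between the genotypes, which also differ in age and may differ in cohort, by edgeR's interaction term with Benjamini-Hochberg adjustment, for Stat2 in microglia (3.11 on the log2 scale, adjusted p = 0.0188), Irf9 in OPCs (3.79, adjusted p = 0.0156) and Irf9 over all nuclei (1.55, adjusted p = 0.0415). These calls were lost under 7 of 21, 4 of 21 and 16 of 22 other settings.

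In the unnamed nuclei, which entered no class, Irf9 was at 22.7 pooled CPM in WT DMXAA libraries and at 10.5 in WT vehicle libraries.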

How the results depend on the processing

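Of the 40 pairs, 6 were called in WT mice with all libraries, 2 when the 8 WT libraries were fitted alone (Stat2 in microglia and Irf9 in OPCs), and 5 to 10 when 1 library was left out (10 without WT DMXAA replicate 3). DESeq2 gave 7, limma 5, library totals 5, no count filter 9 and resolution 1.0 gave 7. At resolution 1.0, clusters of 9777 and 8449 nuclei that best matched ENs were left unnamed. The EN class there was therefore not the same set of nuclei. Stat2 in microglia (2.12 to 2.78) and Irf9 in OPCs (2.51 to 3.14) were called under all 22 settings each. In Ifnar1-/- mice 0 were called under every setting run. For the difference between genotypes 2 were called, against 5 with DESeq2, 4 without the count filter and 0 to 5 with 1 library left out. The count was 5 without WT DMXAA replicate 3, 4 without WT DMXAA replicate 1, and 1 or 0 without WT vehicle replicates 1, 2 or 4, Ifnar1-/- vehicle replicates 1, 3 or 4, or Ifnar1-/- DMXAA replicates 1, 3 or 4. At rest 7 were called, against 11 with the 8 vehicle libraries alone and 5 to 12 with 1 library left out (12 without WT DMXAA replicate 3). Over all nuclei 2 were called in WT mice, against 1 with limma, 1 with library totals, 0 with the 8 WT libraries alone and 1 to 2 with 1 library left out (1 when any single WT vehicle or Ifnar1-/- library was left out). Of the 32 pairs under the count filter, 0 remained untested without it. No result changed direction while called. The cause of these changes was not tested, apart from fewer libraries in a fit. No paired analysis was possible because replicate numbers were given in accession order and pair nothing. Socs1, Socs3 and Stat4 had the fewest UMIs (402, 378 and 745), and the part of depth in their results was not tested.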

Other observations

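At rest, the pathway lists depended on the scaling. Between Ifnar1-/- and WT vehicle mice, 15 of 106 pairs of a cytokine receptor chain and a class were called higher and 7 lower by edgeR with TMM, against 3 and 17 with library totals. Among the Janus kinases 3 of 26 pairs were called higher and 0 lower, against 1 and 5. For the other brakes 18 of 105 were higher and 6 lower, against 1 and 13. ISGF3 targets gave 2 higher and 19 lower of 141, against 1 and 31, and STAT5 and STAT6 targets 8 and 3 of 36, against 7 and 7. With TMM, 12.9 to 49.5% of all genes were called by class, and 3.86% in Cajal-Retzius cells, where no ISGF3, STAT5 or STAT6 target was tested. The share of each list lay inside the range of the classes it was tested in, a range too wide to set a list apart from background. For the difference of the DMXAA response between genotypes, 7 of 141 ISGF3 target pairs were called by edgeR, all higher in WT, with 30 by DESeq2 and 21 by limma. The count depended on WT DMXAA replicate 3. With that library left out, edgeR called 11 in microglia, 7 in astrocytes, 4 in OPCs, 2 in ENs and 1 in oligodendrocytes.

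In the cluster named border macrophage, whose 303 nuclei were too few to be tested, 15 nuclei of 10 libraries held all 47 Stat4 UMIs. These 15 nuclei held 27 macrophage marker UMIs and 18 T cell marker UMIs among 36974 UMIs. The 288 others held 4260 and 68 among 628826. Per UMI, the Stat4 nuclei thus held fewer macrophage markers and more T cell markers than the others. Whether the cluster's name describes them was not tested. Of these 15 nuclei, 5 also held a UMI of a T cell marker, against 17 of the 288 nuclei without Stat4.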
